A study of Homo sapiens with 18 samples.

Results

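Aminoacyl-tRNA synthetases are the enzymes that join each amino acid to its transfer RNA. The genes described here are 35 synthetase genes taken by symbol from a fixed list, 19 for enzymes of the cytosol (symbols ending in 1, with FARSA and FARSB) and 16 for enzymes of mitochondria (symbols ending in 2). All 35 were among the 58050 genes of the deposited table, and all 35 passed the filter on low values that left 15228 genes for testing. The libraries came from KNS-42, a human glioma cell line that had been made to express the Cas9 nuclease and was grown in puromycin. The study set parental cells beside cells overexpressing codon-optimised DDX3X (DDX3Xoe) or codon-optimised DDX3Y (DDX3Yoe). Each of these 3 kinds of cells was transduced with lentivirus carrying either guide 395, directed at the cells' own DDX3X gene, or a negative control guide directed at AAVS1. RNA was taken 7 days later, and each of the 6 groups had 3 libraries, numbered 1 to 3. All groups therefore share Cas9, a guide-carrying lentivirus and puromycin, and the labels do not say whether a kind of cells was 1 clone or a pool, nor what a replicate number stands for.

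Cytosolic synthetases charge the transfer RNAs that feed cytosolic ribosomes. Mitochondrial synthetases are separate nuclear-encoded proteins that are imported to serve the mitochondrial ribosome, while GARS1 and KARS1 each encode both the cytosolic and the mitochondrial form of their enzyme. Several cytosolic enzymes sit in a multisynthetase complex. Many cytosolic synthetase genes are known targets of ATF4, the transcription factor that is translated when amino acids are short or the endoplasmic reticulum is stressed, and WARS1 is in addition a classical interferon-induced gene.

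The element through which ATF4 with its C/EBP partners acts has the core TGATGNAA, read on either strand. This core was looked for in RefSeq promoter windows on GRCh38.p14. A window runs from 250 bases before to 50 bases after a listed start of a gene. Of the 35 genes 30 had such a window, 16 cytosolic and 14 mitochondrial, and LARS1, YARS1, VARS1, AARS2 and VARS2 were not matched. The 30 genes with a window had 39 windows, so some genes had more than 1. For this and the other elements below, a gene was counted if any of its windows held a match. The share of all windows counts each window by itself. Gene counts and window shares are therefore in unlike units, and they were not tested against each other. The core was present in 7 of the 16 cytosolic genes and in 1 of the 14 mitochondrial genes, against 3.62% of all 35116 windows. With C at the open base (TGATGCAA, a subset of the same matches) it was present in 6 cytosolic and 0 mitochondrial genes, against 0.866% of all windows. The 30 bases around each match are shown because these genes are the ones whose levels are followed below. They read 5′ to 3′ along the gene's strand, and capitals mark the core or its reverse complement.
AARS1, chr16:70289675-70289704, minus strand: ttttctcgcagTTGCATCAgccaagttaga
CARS1, chr11:3057407-3057436, minus strand: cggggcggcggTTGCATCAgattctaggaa
GARS1, chr7:30594834-30594863, plus strand: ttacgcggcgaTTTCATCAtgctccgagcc
IARS1, chr9:92293692-92293721, minus strand: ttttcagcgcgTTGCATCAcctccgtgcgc
MARS1, chr12:57488053-57488082, plus strand: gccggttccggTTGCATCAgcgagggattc
NARS1, chr18:57621804-57621833, minus strand: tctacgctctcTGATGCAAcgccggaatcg
TARS1, chr5:33440956-33440985, plus strand: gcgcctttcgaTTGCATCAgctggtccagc
YARS2, chr12:32756076-32756105, minus strand: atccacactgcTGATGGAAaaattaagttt

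The cytosolic genes other than GARS1 that held the core had the same letters, TTGCATCA or its reverse complement, whereas GARS1 held TTTCATCA. The core of the interferon-stimulated response element, GAAA and GAAA with 2 bases of any kind between them, searched on both strands, was present in WARS1 and EARS2 among the 30 matched genes and in 3.57% of all windows. The WARS1 match is shown because WARS1 is the interferon-induced synthetase followed below.
WARS1, chr14:100375383-100375412, minus strand: tttcagaaggGAAACTGAAAgaaagagggg
The gamma-activated core TTCNNNGAA, which reads the same on both strands, was present in CARS1, PARS2, TARS1, WARS1 and WARS2 and in 7.66% of all windows. A match describes letters in these windows and is not a measured binding site.

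The library with the fewest gene reads had 5.67 M and the one with the most 13.2 M (M, 1e6), around a median of 8.85 M. Counts came from tags at the 3′ ends of transcripts, so a value is a normalised read count (reads divided by 1 size factor per library) and is compared only within a gene. DDX3X read between 844 and 953 in the parental libraries with guide 395 and between 1729 and 1923 with AAVS1. The replicate 1 libraries labelled DDX3Xoe ran against their guide labels, with 668 in the library labelled AAVS1 and 1416 in the library labelled 395. Values without both are therefore given beside several of the comparisons that rest on them. They are not given for the difference in guide effects between DDX3Yoe and DDX3Xoe cells. Nor are they given for the gene counts or for QARS1 under guide 395 in DDX3Xoe cells. DDX3Y was at 0 in every library, those of DDX3Yoe cells included. Because the overexpressed copies were codon-optimised, these values may leave out their reads and are not taken as total DDX3X or DDX3Y. The glial markers CD44, GFAP, NES, SOX2 and VIM were present in every library and OLIG2 was at 0. The blood, epithelial and neuronal markers PTPRC, EPCAM and RBFOX3 did not exceed 11, PECAM1 did not exceed 40 and CD68 did not exceed 178. Changes are differences in log2(value + 1), tested with limma over all genes, and called genes are those under 0.05 after Benjamini-Hochberg adjustment. Separate cultures for the replicates are not stated, so p-values measure the spread between these libraries, and in bulk RNA fewer cells with a transcript and less transcript per cell cannot be told apart.

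Some of the cytosolic synthetases, and none of the mitochondrial ones, were called when same-numbered libraries were compared across the 6 groups. In libraries numbered 3, 8 of 19 cytosolic genes were higher than in libraries numbered 1 and 2 and 0 were lower, while 0 of 16 mitochondrial genes changed. Of all genes tested, 5.12% changed in this comparison, 2.4% higher and 2.73% lower. The 8 were GARS1, CARS1, SARS1, AARS1, YARS1, NARS1, WARS1 and EPRS1, with changes from 0.60 to 1.31. The median change was 0.57 over the cytosolic genes, -0.05 over the mitochondrial genes and 0.02 over all genes tested. The fit holds the 6 groups and the number together, and it takes a number to have the same effect in each group.

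**Figure D1:**
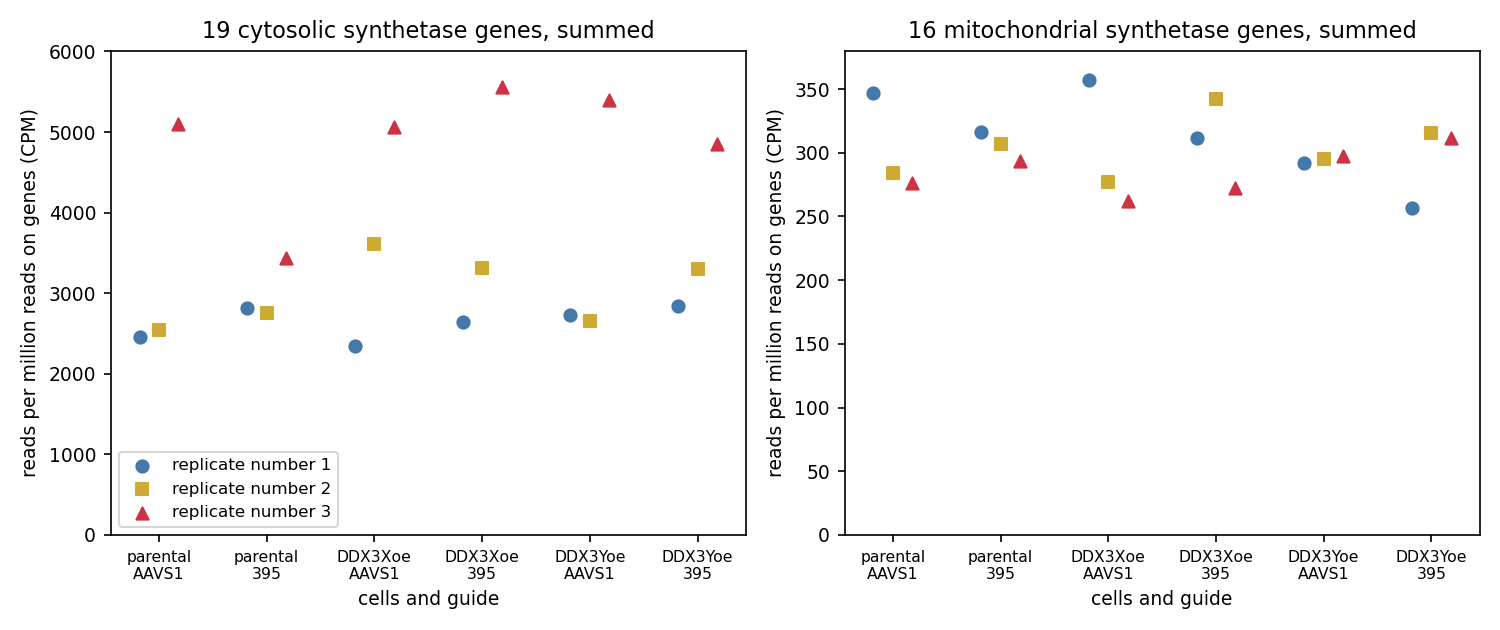
Summed reads of the 19 cytosolic (left) and 16 mitochondrial (right) synthetase genes, in counts per 1000000 reads on genes (CPM), for each library by cells and guide, with replicate number shown by colour and shape and separate axes from 0. In 5 of 6 groups the number 3 library stands well above the other two in the cytosolic panel, the parental 395 group is the exception, and the mitochondrial sums lie between 256 and 357 in all libraries.

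The summed cytosolic level shows the size of this difference. Numbers 1, 2 and 3 stood at 2452, 2546 and 5098 counts per 1000000 reads (CPM) in parental cells with AAVS1. They stood at 2339, 3614 and 5057 in DDX3Xoe cells with AAVS1 and at 2645, 3310 and 5562 with guide 395. The DDX3Yoe cells gave 2727, 2658 and 5397 with AAVS1 and 2846, 3297 and 4852 with guide 395. Number 3 was the highest of each of these groups. In parental cells with guide 395 the sums were 2816, 2751 and 3433, so number 3 was highest there too but below the number 3 libraries of every other group. The mitochondrial sums, between 256 and 357 CPM, showed no such order: number 3 was lowest in parental cells and in DDX3Xoe cells with both guides, highest in DDX3Yoe cells with AAVS1 and second with guide 395.

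GARS1, the glycyl-tRNA synthetase gene at chr7:30594681-30634033, had the smallest p of the 35. Its values for numbers 1, 2 and 3 were 1308, 1460 and 3685 in parental AAVS1 cells and 1159, 1047 and 1172 in parental 395 cells. In DDX3Xoe cells they were 1072, 1670 and 3872 with AAVS1 and 1216, 1399 and 4033 with guide 395, and in DDX3Yoe cells 1114, 1201 and 4023 with AAVS1 and 1253, 1363 and 3445 with guide 395. Thus 5 of the 6 number 3 libraries held 3445 or more and no other library exceeded 1670, while the number 3 library of parental 395 cells sat among the rest. The change was 1.31 (SE 0.174, limma adjusted p = 0.00042). KARS1, for lysyl-tRNA synthetase and the other gene that serves both compartments, ranged from 1279 to 2032 in the 12 libraries numbered 1 and 2 and from 1835 to 2615 in number 3, with a median of 2247 there. Its change of 0.34 (SE 0.127) did not pass (limma adjusted p = 0.143).

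Among the other called genes, SARS1, for seryl-tRNA synthetase (chr1:109213918-109238169), ranged over 673 to 1788 in number 1, 1162 to 2295 in number 2 and 1268 to 4445 in number 3, with medians of 1191, 1486 and 3531. The 5 number 3 libraries outside parental 395 cells held 2947 or more, above all libraries numbered 1 and 2. The change was 1.22 (SE 0.193, limma adjusted p = 0.00138).

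CARS1, for cysteinyl-tRNA synthetase (chr11:3000922-3057613), had medians of 1615, 2682 and 5163 in numbers 1, 2 and 3 and ranges of 1157 to 2513, 1570 to 4464 and 2178 to 5887. The ranges of numbers 2 and 3 overlapped, yet number 3 was the highest of its group in 6 of 6 groups. The change was 1.10 (SE 0.168, limma adjusted p = 0.00102). AARS1, for alanyl-tRNA synthetase (chr16:70252295-70289543), went from a median of 2224 in number 1 and 2891 in number 2 to 4748 in number 3, with number 3 between 2829 and 6126. Number 3 was again highest in 6 of 6 groups, although DDX3Xoe AAVS1 replicate 2, at 4284, came close. The change was 0.88 (SE 0.152, limma adjusted p = 0.00272).

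YARS1, for tyrosyl-tRNA synthetase (chr1:32775237-32818153), lay between 707 and 1033 in the other 12 libraries. In number 3 it read 786 in parental 395 cells and between 1415 and 1810 elsewhere. The change was 0.82 (SE 0.146, limma adjusted p = 0.00347). NARS1, for asparaginyl-tRNA synthetase (chr18:57600656-57622213), read 1284 to 1790 in numbers 1 and 2, 1403 in the number 3 library of parental 395 cells and 2375 to 2738 in the other 5. Its change was 0.62 (SE 0.128, limma adjusted p = 0.00926). EPRS1, the joined glutamyl- and prolyl-tRNA synthetase that belongs to the multisynthetase complex (chr1:219968601-220046658), read 800 to 1732 in numbers 1 and 2. Number 3 held 920 in parental 395 cells and 1907 to 2523 in the rest, a change of 0.60 (SE 0.129, limma adjusted p = 0.0112). EPRS1 missed the threshold when the number 3 library of parental AAVS1, DDX3Xoe 395 or DDX3Yoe AAVS1 cells was left out, with adjusted p between 0.0521 and 0.0608.

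WARS1, for tryptophanyl-tRNA synthetase (chr14:100333788-100376805), differed from the other 7 in the parental cells. Its values for numbers 1, 2 and 3 were 1983, 2766 and 7912 with AAVS1 and 7586, 5737 and 9362 with guide 395 in parental cells. They were 1229, 4112 and 5873 with AAVS1 and 1525, 5114 and 7731 with guide 395 in DDX3Xoe cells. In DDX3Yoe cells they were 2802, 1387 and 6950 with AAVS1 and 3629, 3841 and 6043 with guide 395. Number 3 was highest in 6 of 6 groups, and the parental 395 number 3 library held the highest value of all 18. The change was 1.27 (SE 0.270, limma adjusted p = 0.0105), and it missed the threshold without the number 3 library of parental AAVS1 (0.0521) or DDX3Yoe AAVS1 cells (0.0591). The gene AL157871.4 overlaps its 3′ end in GENCODE 29.

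**Figure D2:**
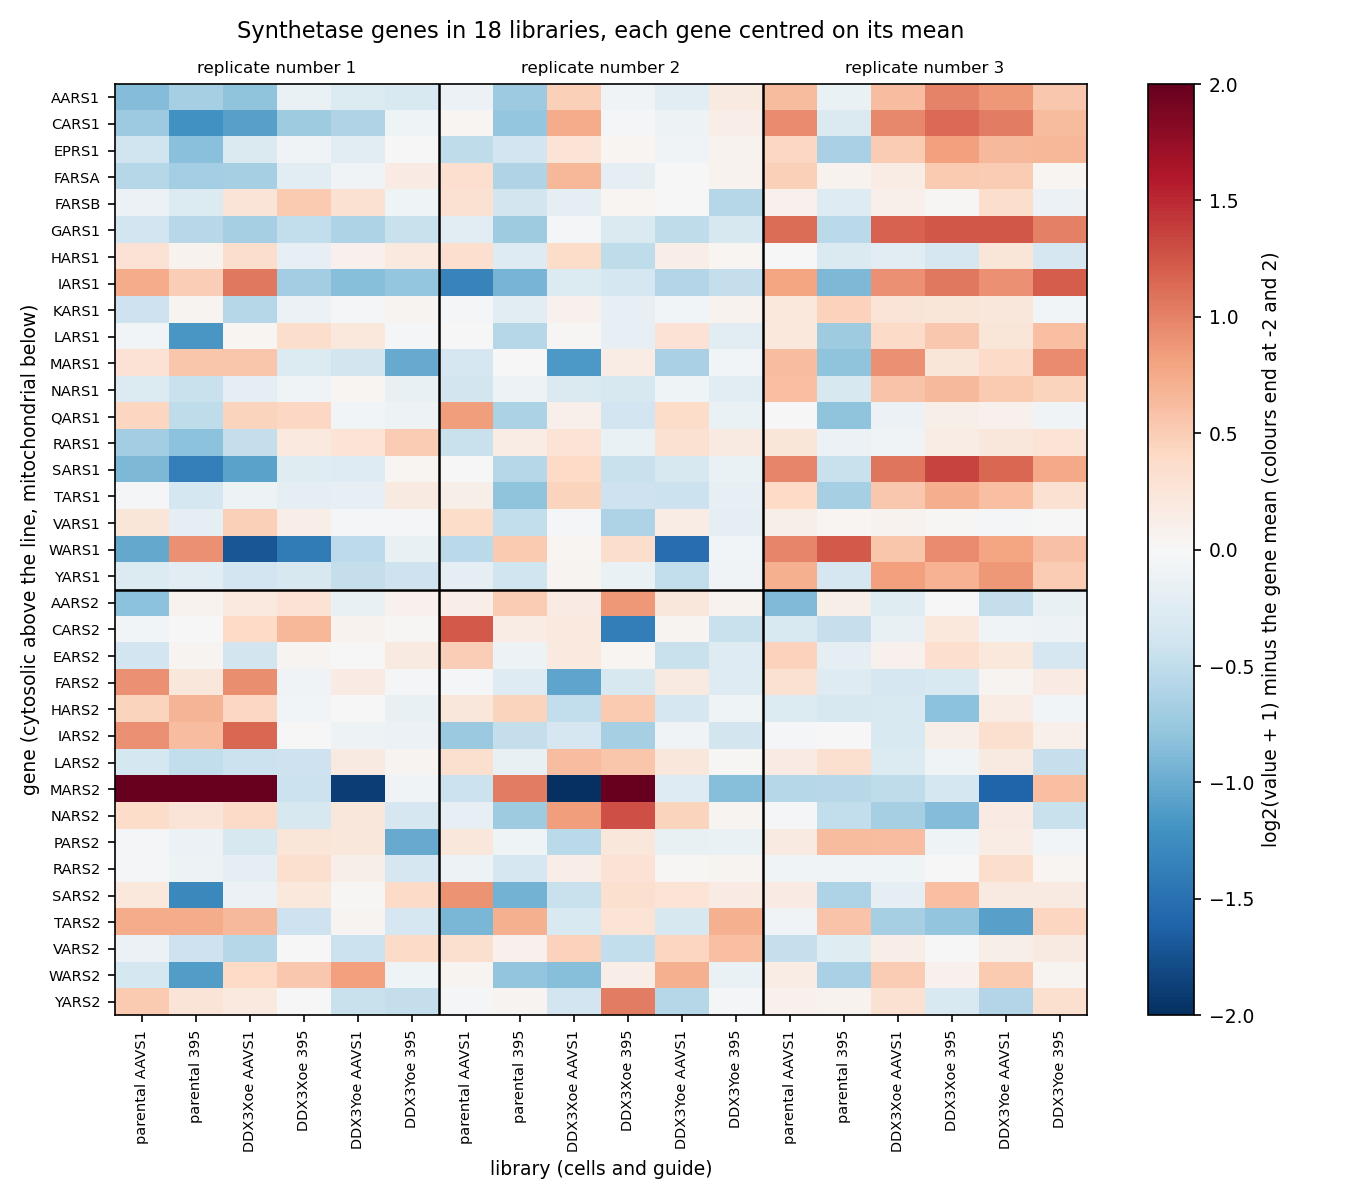
All 35 synthetase genes (rows, cytosolic above the line) in the 18 libraries (columns, ordered by replicate number), coloured by log2(value + 1) minus the gene's mean, with colours ending at -2 and 2. The cytosolic rows are red across most of the number 3 block except in the parental 395 column, and the mitochondrial rows show no block of that kind.

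By count of groups, number 3 was the highest of its 3 libraries in at least 5 of 6 groups for 11 cytosolic and 0 mitochondrial genes, against 6.11% of all genes tested. In all 6 groups it was highest for 5 cytosolic genes (AARS1, CARS1, GARS1, SARS1 and WARS1), against 1.65% of all genes. None of the 35 had all 6 number 3 libraries above the other 12, which held for 0.335% of all genes. At least 2-fold above the mean of numbers 1 and 2 were 5 cytosolic genes in parental AAVS1 cells, 3 in DDX3Xoe AAVS1, 7 in DDX3Xoe 395, 7 in DDX3Yoe AAVS1 and 3 in DDX3Yoe 395. That rule held for 8.4%, 6.51%, 8.37%, 6.34% and 5.78% of all genes in these groups. In parental 395 cells it held for 0 synthetase genes and for 4.83% of all genes. Among mitochondrial genes it was met by 1 gene each in DDX3Xoe AAVS1 cells (PARS2) and DDX3Yoe 395 cells (MARS2).

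The parental 395 number 3 library was thus the exception among the number 3 libraries. Its cytosolic genes lay at a median of 1.06 times the mean of numbers 1 and 2 of its group, against 1.38 to 1.78 times in the other 5 groups. Without that library, chosen after its values were seen, 11 cytosolic genes were higher, with TARS1, MARS1 and IARS1 added to the 8, and the cytosolic median was 0.72. Without both replicate 1 libraries labelled DDX3Xoe the same 8 genes were called. Within DDX3Yoe libraries alone 8 were called, 6 of the 8 above with IARS1 and MARS1, within parental libraries 1 (CARS1) and within DDX3Xoe libraries 0. Within libraries with AAVS1 6 were called, and within those with guide 395, 0. The changes of GARS1 in these smaller fits were 1.60 in DDX3Yoe, 1.58 in DDX3Xoe and 0.75 in parental libraries.

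IARS1, the isoleucyl-tRNA synthetase gene (chr9:92210207-92293756), had another pattern. For numbers 1, 2 and 3 it read 814, 194 and 839 in parental AAVS1 cells, 690, 256 and 261 in parental 395 cells and 1020, 405 and 915 in DDX3Xoe AAVS1 cells. It read 300, 380 and 1015 in DDX3Xoe 395 cells, 270, 324 and 920 in DDX3Yoe AAVS1 cells and 285, 350 and 1135 in DDX3Yoe 395 cells. So 3 replicate 1 libraries, those of parental AAVS1, parental 395 and DDX3Xoe AAVS1 cells, were about as high as number 3 elsewhere. Its change of 0.99 (SE 0.314) did not pass in limma (adjusted p = 0.0807) and passed in DESeq2 (0.0142).

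The cytosolic genes differed among themselves by a list of 12 synthetases known as amino acid response targets. That list was chosen with earlier results of these data known, so the split by it is a description and not a test. All 8 called genes were in that list, with a median change of 0.85 over its 12 members. The 7 others (FARSA, FARSB, HARS1, KARS1, LARS1, QARS1 and RARS1) held 0 called genes and a median of 0.18. Of the 7 enzymes of the multisynthetase complex 1, EPRS1, was called. Of the list's other 4 members IARS1 is given above, TARS1 changed by 0.48 (SE 0.152) and MARS1 by 0.57 (SE 0.287), neither past the test in limma, and VARS1 by 0.06. MARS1 (chr12:57475445-57517569) overlaps DDIT3 at its 3′ end on the opposite strand, and DDIT3 rose by 1.77, so without a stated strand setting reads of the pair cannot be told apart. Of the 7 genes in this comparison that were called and had a promoter window, AARS1, CARS1, GARS1 and NARS1 held the core TGATGNAA shown above and EPRS1, SARS1 and WARS1 did not. IARS1, MARS1 and TARS1 held it too and were not called.

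Where the cytosol and mitochondria use separate genes for the same amino acid, 13 pairs could be set side by side. The cytosolic gene had the larger number 3 change in 13 of 13. For serine the pair stood at 1.22 (SARS1) and 0.08 (SARS2), for cysteine at 1.10 (CARS1) and -0.22 (CARS2), and for alanine at 0.88 (AARS1) and -0.41 (AARS2). The pair for histidine was close, at -0.23 (HARS1) and -0.41 (HARS2), as were the pairs for arginine, 0.18 (RARS1) and 0.04 (RARS2), and valine, 0.06 (VARS1) and -0.07 (VARS2). The replicate number held a median of 40.7% of a cytosolic gene's variance across the 18 libraries, 17.3% of a mitochondrial gene's and 18% over all genes tested. GARS1 had the largest share, 71.5%. HARS1 and HARS2 lie head to head on chromosome 5. The gene WDR55 overlaps the 3′ end of HARS1, and ZMAT2 overlaps that of HARS2.

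No mitochondrial gene passed in this comparison in limma, edgeR or DESeq2, and AARS2 and NARS2 (12.5% of the 16) had an unadjusted p under 0.05, against 19.6% of all genes. AARS2, for mitochondrial alanyl-tRNA synthetase, had medians of 85.8, 93.5 and 71.1 in numbers 1, 2 and 3 and a change of -0.41 (SE 0.165, limma adjusted p = 0.175). Its number 3 library was the lowest of the group in 5 of 6 groups, the exception being parental 395 cells. NARS2, for the asparaginyl enzyme, had medians of 58.2, 59.1 and 35.1 and a change of -0.58 (SE 0.273, limma adjusted p = 0.25).

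HARS2, for the histidyl enzyme, had medians of 80.8, 72.9 and 56.1 (change -0.41, SE 0.215, limma adjusted p = 0.318). PARS2, for the prolyl enzyme, had medians of 62.6, 60.8 and 73.9 (change 0.36, SE 0.208, limma adjusted p = 0.366). The remaining 12 mitochondrial genes changed by -0.74 (MARS2) to 0.17 (WARS2). Median values over the 18 libraries ran from 15.3 (MARS2) to 412 (RARS2) among the mitochondrial genes, so counting error weighs more on the lowest of them.

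Genes around the synthetases in the amino acid response moved with the cytosolic enzymes. Of 33 such genes in a separate list, 31 were tested, 26 were higher in number 3 and 0 were lower, with a median change of 1.25. This list too was chosen with earlier results of these data known. The members with the smallest p were SESN2, a leucine-sensing regulator of mTORC1 (1.90, SE 0.212), SLC7A5, a transporter of large neutral amino acids (1.43, SE 0.164), GDF15, a secreted stress hormone (3.09, SE 0.355), and CHAC1, which breaks down glutathione (2.15, SE 0.277). Their limma adjusted p lay between 0.000248 and 0.000362. The parental 395 library was the lowest of the 6 numbered 3 for 22 of these 26 genes, as with GDF15 at 406 against 1813 to 2518. The 4 others were ATF3, ATF5, CEBPB and PPP1R15A, named after their values were seen, and CEBPB, at 779 there, was above the other 5 (533 to 747).

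Other tRNA genes showed little of this. None of 3 scaffold proteins of the multisynthetase complex, 4 genes of the mitochondrial amidotransferase and formyltransferase, 3 editing genes, 22 tRNA export and end processing genes or 11 mitochondrial tRNA modification genes changed. Of 15 RNA polymerase III genes POLR3K, a small subunit, fell by 0.59 (limma adjusted p = 0.0406). Of 4 carriers of charged tRNA EEF1A1, which brings charged tRNA to the ribosome and has near-identical copies that can share its reads, rose by 0.49 (0.0468). Of 21 interferon-induced genes IRF1, a transcription factor, rose by 1.24 (0.00637). Of the 5 glioma markers tested, 1 fell, the astrocyte filament GFAP, by 2.02 (0.000343), from 2270 to 7653 in numbers 1 and 2 to 753 to 1927 in number 3. The 2 other-cell markers tested (CD68 and PECAM1) did not pass. Read depth in the number 3 libraries lay within the range of the rest. The part of the GFAP difference in the synthetase result was not tested.

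Between numbers 1 and 2 limma called 0 of 35 synthetase genes and 0.105% of all genes, 0.0328% higher and 0.0722% lower in number 2. At an unadjusted p under 0.05 stood 6 of the 35 (17.1%) and 20.2% of all genes, so the synthetase share was below that of all genes. DESeq2 called CARS1 higher and IARS2 lower in number 2, and edgeR called none of the 35. CARS1 differed by 0.74 (SE 0.194, limma adjusted p = 0.11). IARS2, for the mitochondrial isoleucyl enzyme, differed by -0.86 (SE 0.227, limma adjusted p = 0.111). Within parental libraries IARS1, IARS2 and MARS2 were lower in number 2 than in number 1.

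**Figure D3:**
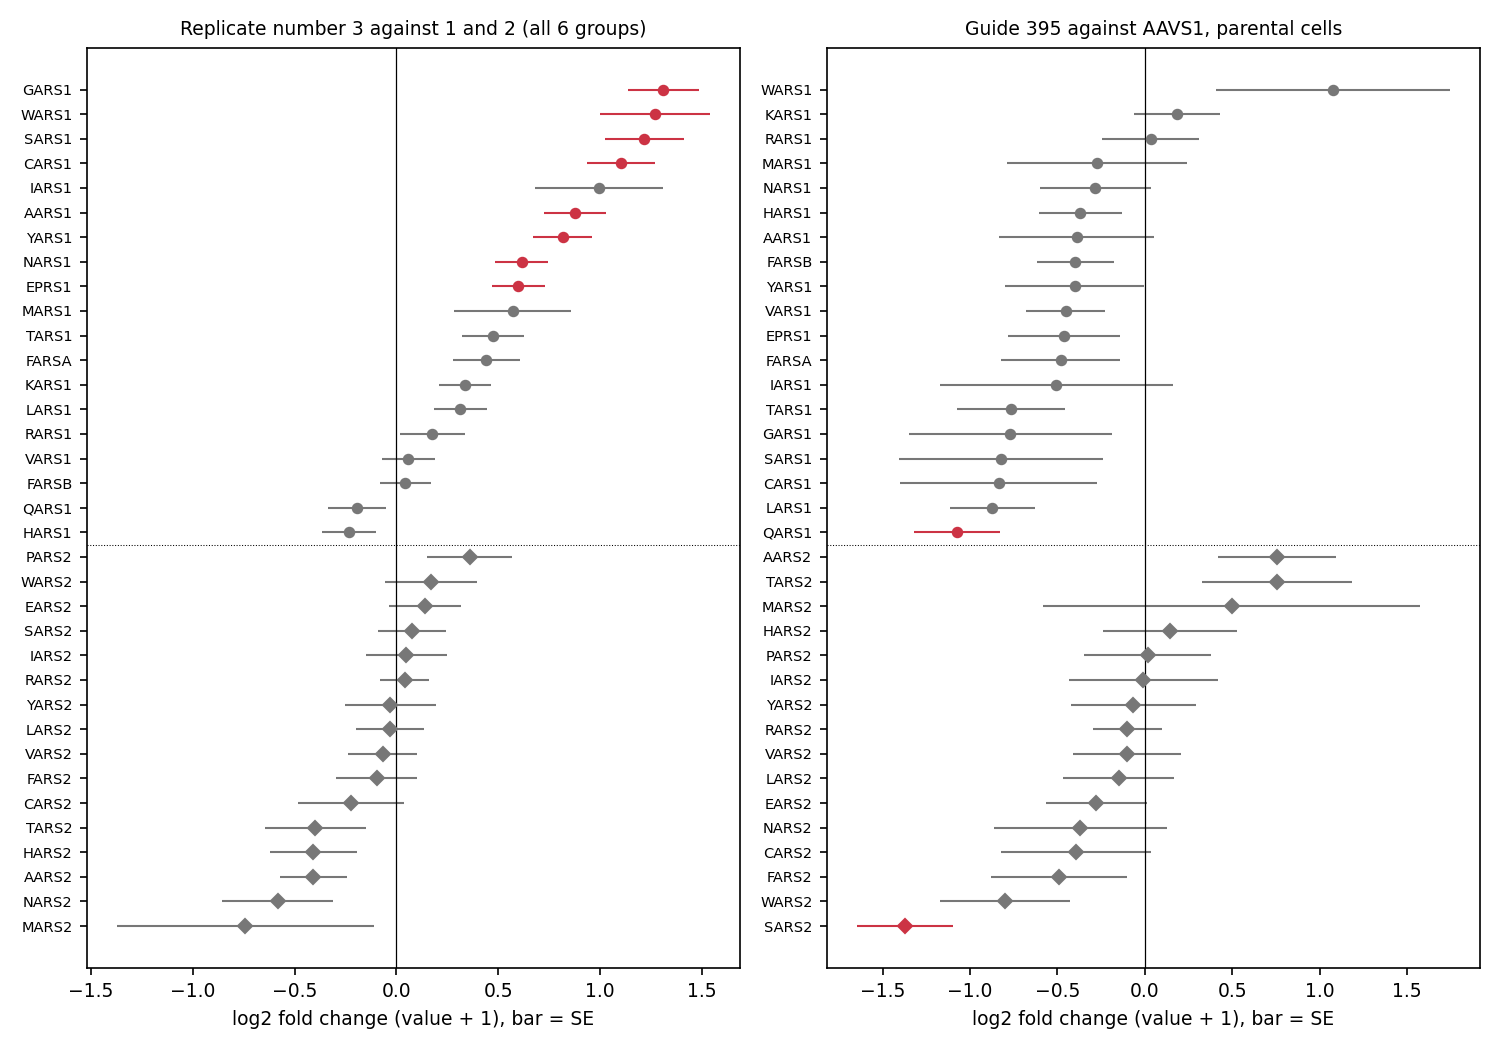
Log2 fold change with SE for each synthetase gene (cytosolic circles above the dotted line, mitochondrial diamonds below), for replicate number 3 against 1 and 2 (left) and guide 395 against AAVS1 in parental cells (right), with genes called by limma in red. The left panel has 8 called cytosolic genes to the right of 0, and the right panel has QARS1 and SARS2 called to the left of 0.

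The question behind the guide comparison is what loss of DDX3X does to these cells. In parental cells guide 395 lowered 2 of 35 synthetase genes relative to AAVS1, cytosolic QARS1 and mitochondrial SARS2, and raised 0. Of all genes tested, 1.78% changed in this comparison, 0.978% higher and 0.801% lower. The median change was -0.45 over the cytosolic genes, 16 of 19 of which were below 0, -0.10 over the mitochondrial genes and 0.02 over all genes tested. The share of all genes below 0 was not counted. At an unadjusted p under 0.05 in limma stood 6 of the 35 (17.1%) and 16.9% of all genes, so the synthetase share was close to that of all genes. By set it was 15.8% of the cytosolic and 18.8% of the mitochondrial genes. Libraries did not overlap between guides for 8 synthetase genes, all lower with guide 395 (FARSB, GARS1, LARS1, QARS1, TARS1, VARS1, SARS2 and WARS2), against 9.86% of all genes lower and 10.7% higher.

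QARS1, for glutaminyl-tRNA synthetase of the complex (chr3:49095932-49105135), read 1059, 1399 and 790 with AAVS1 and 552, 505 and 447 with guide 395. Means were 1083 ± 305 and 501 ± 52.4 (SD, n = 3 libraries each), and every guide 395 library lay below every AAVS1 library. The change was -1.08 (SE 0.246, limma adjusted p = 0.0343). SARS2, for mitochondrial seryl-tRNA synthetase (chr19:38915266-38930896), read 121, 196 and 117 with AAVS1 and 42.2, 54.1 and 67.8 with guide 395. Means were 145 ± 44.5 and 54.7 ± 12.8 (SD, n = 3 each), again without overlap. The change was -1.37 (SE 0.276, limma adjusted p = 0.019), and the gene AC011455.2 overlaps its 3′ end.

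Leaving out 1 library at a time kept the sizes of both changes, from -1.28 to -0.87 for QARS1 and from -1.54 to -1.13 for SARS2, but not always the calls. Fitted on the 6 parental libraries alone, QARS1 and SARS2 had limma adjusted p of 0.139 and 0.143, and neither passed without all replicate 3 libraries. QARS1 missed the threshold without any one of parental AAVS1 replicates 1 or 2, any parental 395 library or DDX3Yoe 395 replicate 2, with adjusted p from 0.0528 to 0.166. SARS2 missed it without parental AAVS1 replicate 2 (0.112), parental 395 replicate 1 (0.0849) or parental 395 replicate 2 (0.0567). Both passed in edgeR (0.0351 and 0.0198) and DESeq2 (0.00176 and 0.000155).

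LARS1, for leucyl-tRNA synthetase, the complex member that also senses leucine, read 681, 713 and 816 with AAVS1 and 314, 478 and 430 with guide 395. Its change was -0.87 (SE 0.245, limma adjusted p = 0.0737), and it passed when replicate number was added as a block (0.0303) and in DESeq2 (0.0253). TARS1, for the threonyl enzyme, read 2686, 2960 and 3597 with AAVS1 and 2143, 1570 and 1736 with guide 395 (change -0.76, SE 0.309, limma adjusted p = 0.207). VARS1, for the valyl enzyme, read 694, 755 and 640 with AAVS1 and 516, 419 and 605 with guide 395 (change -0.45, SE 0.225, limma adjusted p = 0.321).

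Part of the low cytosolic median lay in the replicate 3 pair. Between same-numbered parental libraries the median cytosolic difference, guide 395 minus AAVS1, was -0.18 for number 1, -0.58 for number 2 and -0.92 for number 3. For the mitochondrial genes it was -0.09, -0.23 and -0.00143. GARS1, with the largest number effect, differed by -0.77 (SE 0.582, limma adjusted p = 0.536) and KARS1 by 0.18 (SE 0.247, 0.761).

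WARS1 stood apart from the other cytosolic genes, with the largest positive change of the 35, 1.08 (SE 0.670). The guide 395 libraries, 5737 to 9362, were above AAVS1 replicates 1 and 2 (1983 and 2766) and overlapped AAVS1 replicate 3 (7912), and the change did not pass (limma adjusted p = 0.441). In the same comparison 5 of 21 interferon-induced genes rose and 0 fell, with a median change of 1.81. The 4 with the smallest p were HLA-E (2.48) and HLA-B (2.89), which present peptides to immune cells, TAP1 (2.07), which loads those peptides, and IFIT2 (3.22), an antiviral protein, at limma adjusted p from 0.00479 to 0.0174. The glioma marker NES, an intermediate filament of neural progenitors, fell by 1.71 (0.00314), the only 1 of the 5 tested to pass, and its part in the synthetase differences was not tested. None of the 31 amino acid response genes tested passed, and no list of other tRNA genes held a called gene.

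The other mitochondrial genes with small p moved in both directions. WARS2, for mitochondrial tryptophanyl-tRNA synthetase, read 33.6, 44.7 and 48.0 with AAVS1 and 19.3, 24.6 and 27.1 with guide 395 (change -0.80, SE 0.372, limma adjusted p = 0.283). It went the opposite way to WARS1, though neither passed. AARS2 read 45.7, 89.3 and 43.5 with AAVS1 and 85.3, 116 and 88.7 with guide 395 (change 0.76, SE 0.336, limma adjusted p = 0.258). TARS2, for the threonyl enzyme, read 522, 166 and 299 with AAVS1 and 526, 512 and 467 with guide 395 (change 0.76, SE 0.430, limma adjusted p = 0.392). In 9 of the 13 pairs that share an amino acid the cytosolic gene had the lower guide effect.

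In DDX3Xoe and DDX3Yoe cells guide 395 changed 0 of 35 synthetase genes and 0% of all genes in limma, edgeR and DESeq2. At an unadjusted p under 0.05 limma gave 2 synthetase genes in DDX3Xoe cells (HARS1 and SARS2) of 315 genes in all, and 1 in DDX3Yoe cells (FARSB) of 153. That was 5.71% of the 35 against 2.07% of all genes in DDX3Xoe cells, and 2.86% against 1% in DDX3Yoe cells. In DDX3Xoe cells the median change was -0.00481 for the cytosolic and 0.11 for the mitochondrial genes, and -0.10 and 0.17 without both replicate 1 libraries labelled DDX3Xoe. In DDX3Yoe cells the medians were 0.03 and -0.11.

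SARS2 read 96.5, 76.7 and 91.7 in the DDX3Xoe libraries labelled AAVS1 and 121, 131 and 159 in those labelled 395. These groups did not overlap and guide 395 was higher (change 0.63, SE 0.276, limma adjusted p = 1), which held for 1.83% of all genes, against 2.04% lower, and without both replicate 1 libraries the change was 0.78. In DDX3Yoe cells it read 106, 126 and 119 with AAVS1 and 137, 117 and 119 with guide 395, which overlapped (change 0.08). QARS1 read 1069, 838 and 725 with AAVS1 and 1042, 600 and 846 with guide 395 in DDX3Xoe cells, and 751, 1006 and 830 against 729, 710 and 749 in DDX3Yoe cells. In DDX3Yoe cells 5 genes did not overlap between guides, all lower with guide 395 (FARSB, LARS2, NARS2, QARS1 and WARS2), against 3.69% of all genes lower and 3.8% higher. WARS1 changed by 0.34 (SE 0.670) in DDX3Xoe and by 0.55 (SE 0.670) in DDX3Yoe cells, with overlapping libraries in both. Without both replicate 1 libraries labelled DDX3Xoe its change in DDX3Xoe cells was 0.36, and without the AAVS1 one of them alone it was -0.33.

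The difference between guide effects was tested directly. Between DDX3Xoe and parental cells limma called 0 of 35 synthetase genes and 0.046% of all genes (0.0197% higher, 0.0263% lower), with 3 of the 35 (8.57%; LARS1, QARS1 and SARS2) and 8.14% of all genes at an unadjusted p under 0.05. The difference for SARS2 was 2.00 (SE 0.391, limma adjusted p = 0.0822), and DESeq2 called it (0.000419) while edgeR did not (0.083). For QARS1 it was 0.98 (SE 0.348, limma adjusted p = 0.488) and for LARS1 0.96 (SE 0.346, 0.488). Without both replicate 1 libraries labelled DDX3Xoe these differences were 2.15 for SARS2, 0.95 for QARS1 and 0.85 for LARS1, and 0 of 35 passed in limma, SARS2 at an adjusted p of 0.263. Between DDX3Yoe and parental cells limma called 0 synthetase genes and 0% of all genes, and LARS1, QARS1 and SARS2 (8.57% of the 35) had unadjusted p below 0.05, as did 4.84% of all genes. In edgeR and DESeq2 too, 0 of the 35 passed there. There SARS2 differed by 1.45 (SE 0.391, limma adjusted p = 0.882). Between DDX3Yoe and DDX3Xoe cells 0 of 35 passed in limma, edgeR or DESeq2 and 0 had an unadjusted p under 0.05. These differences share the parental libraries with the parental comparison.

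Under AAVS1 the 3 kinds of cells gave no called synthetase gene. In limma, edgeR and DESeq2, DDX3Xoe against parental, DDX3Yoe against parental and DDX3Yoe against DDX3Xoe called 0 of 35 synthetase genes and 0% of all genes. At an unadjusted p under 0.05 limma gave 1, 0 and 0 synthetase genes, the 1 being SARS2, of 150, 402 and 136 genes in all. That was 2.86%, 0% and 0% of the 35, against 0.985%, 2.64% and 0.893% of all genes. These comparisons share the AAVS1 libraries with the guide comparisons. Median cytosolic changes were 0.04, 0.03 and -0.02, and median mitochondrial changes were -0.10, -0.12 and 0.04. Without both replicate 1 libraries labelled DDX3Xoe the cytosolic medians were 0.33 for DDX3Xoe against parental and -0.27 for DDX3Yoe against DDX3Xoe, the mitochondrial medians were -0.17 and 0.09, and 0 of 35 passed in either. A p that misses the threshold does not show that the cells had equal levels.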

How the data were processed

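RNA was sequenced from 18 libraries with a 3′ mRNA tag kit, per the labels' protocols. Tools named in the submitters' processing notes are featureCounts 1.5.1, RSEM 1.3.0, STAR 2.5.2b and limma, with GRCh38 as the build. The annotation and strand setting are not given in the sources used here. What the authors deposited is a normalised signal per gene. Its values are read counts over a library-wide size factor, since in units of a column's lowest value above 0 they came out whole in 100% of cases (tolerance 0.01).

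Groups came from the labels. GENCODE 29 (GRCh38) supplied positions and symbols and held 57446 identifiers. The filter kept genes that reached 10 in 3 or more libraries. limma 3.58.1 in R 4.3.3 was fitted to log2(value + 1) with an intensity trend over all 18 libraries: 6 group means for the guide and cell comparisons (12 residual degrees of freedom), and group plus replicate number for the number comparisons. P-values were adjusted over all genes within each of 11 comparisons. The fits were tested on simulated counts.

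Values in every library were to be given for called genes, for the 4 cytosolic and 4 mitochondrial genes with the smallest p in the parental and number 3 comparisons, and for WARS1, GARS1 and KARS1. IARS1 was added after its values were seen. Other genes were named if called, at most 4 per list, by smallest p. The members and lists were chosen with earlier results of these data known. Same-numbered parental libraries deviated together (correlations 0.57, 0.201 and 0.28), so numbers were taken as a possible pairing, as a hint from the data. The main guide and cell fits hold no block for it, and values with the block are given where they changed a call. Between the guides these correlations were 0.231, -0.0279 and 0.3 in DDX3Xoe and 0.0745, 0.114 and 0.238 in DDX3Yoe cells. Over all pairs of groups they ran from -0.293 (parental 395 with DDX3Yoe 395, number 1) to 0.698 (parental AAVS1 with DDX3Xoe AAVS1, number 1). No replicate pair agreed within counting noise. Alternatives were pseudocounts of 0.1 and 5, a filter at 50 or none, centring on the median, no trend, the compared groups alone, the replicate block, leaving out libraries, and edgeR 4.0.16 and DESeq2 1.42.0 on the recovered reads. DDIT3 was named beside MARS1 because the pair overlaps.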

Additional observations from a re-analysis of the deposited data

Results flagged for a closer look

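SARS2, for mitochondrial seryl-tRNA synthetase, stood out because guide 395 went opposite ways in 2 kinds of cells. All 3 guide 395 libraries lay below all 3 AAVS1 libraries in parental cells, as for 9.86% of all genes. As labelled, all 3 lay above in DDX3Xoe cells, as for 1.83% of all genes. The replicate 1 libraries labelled DDX3Xoe, whose DDX3X ran against their labels, read 96.5 (AAVS1) and 121 (395). With these 2 labels exchanged the DDX3Xoe libraries would overlap. The difference between the guide effects, DDX3Xoe minus parental, was 2.00 (SE 0.391, limma adjusted p = 0.0822), so it missed the threshold in limma and passed in DESeq2 (0.000419). Without both replicate 1 libraries labelled DDX3Xoe it was 2.15 (limma adjusted p = 0.263). SARS2 read at most 196 in any library, and its 3′ end overlaps AC011455.2.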

How the results depend on the processing

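Compared groups alone and all replicate 3 libraries left out each gave 0 lower synthetase genes with guide 395 in parental cells, where 2 were reported, no filter and no intensity trend each gave 1, and leaving out single libraries gave 0 to 2. The cause was not tested. For number 3, the count of higher genes was 8 and ranged from 6 to 11 over single libraries left out, and it fell to 1 within parental, 0 within DDX3Xoe and 0 within guide 395 libraries. Fits of the same size gave 8 within DDX3Yoe and 6 within AAVS1 libraries. The cause was not tested. For number 2 against 1, where 0 were reported, higher genes numbered 1 within AAVS1 libraries, 1 in DESeq2 and 0 to 2 over single libraries left out, and lower genes numbered 3 within parental libraries, 1 in DESeq2 and 0 to 1 over single libraries. DESeq2 called 1 synthetase gene higher for DDX3Xoe minus parental. With the replicate block, 3 synthetase genes were lower in parental cells, against 2 without it, and no other guide or cell comparison's count of called synthetase genes changed. Over all genes, the parental comparison called 271 genes, 677 with the block and 909 in DESeq2, DDX3Xoe minus parental called 7, 16 with the block and 86 in DESeq2, DDX3Yoe minus parental called 0 and 9 in DESeq2, number 3 called 780 and 1374 in DESeq2, and number 2 against 1 called 16 and 632 in DESeq2. HARS2 turned to 0.19 for number 3 within DDX3Yoe libraries. Over single libraries left out, the WARS1 guide effect ran from -0.33 to 1.02 in DDX3Xoe cells and from -0.00973 to 1.15 in DDX3Yoe cells. It turned to -0.33 and -0.15 in DDX3Xoe cells without DDX3Xoe AAVS1 replicate 1 or DDX3Xoe 395 replicate 3, and to -0.00973 in DDX3Yoe cells without DDX3Yoe AAVS1 replicate 2. The fits within kinds of cells or guides, without parental libraries and without replicate 3 were added after the data were seen. Counting error was not separated from other spread between libraries.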

Other observations

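In 3 replicate 1 libraries, those of parental AAVS1, parental 395 and DDX3Xoe AAVS1 cells, several synthetase genes read high together, a pattern noticed after the values were seen. IARS2, for the mitochondrial isoleucyl enzyme, read 502, 404 and 589 there and between 158 and 332 in the other 15 libraries. IARS1 read 814, 690 and 1020 there, and 194 to 405 in the other libraries except 5 of the 6 numbered 3. MARS2, for the mitochondrial methionyl enzyme, read 91.3, 93.2 and 106 there and 2.13 to 87.2 elsewhere.

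The 87.2 of MARS2 belonged to DDX3Xoe 395 replicate 2, the library with the fewest reads, 5.67 M. That library also held the highest values of AARS2 (149), NARS2 (121) and YARS2 (134) and the lowest of CARS2 (140). Whether its depth had a part in these values was not tested.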
